A study of Mus musculus with 25 samples.

Results

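Transcripts of 9 ubiquitin ligases with known roles in heart stress and muscle atrophy were followed across 25 mouse hearts. They were the rows of the deposited read-count table that map to the symbols Rnf144b, Rnf2, Herc2, Trim63, Trim55, Fbxo32, Nedd4, Mdm2 and Stub1, 9 of 56941 genes in the table, and all 9 passed the filter on low counts that left 17682 genes for testing. Rnf144b, Rnf2 and Herc2 were chosen by their differences between treatments in the WT hearts of this series (saline against no pump and Ang/PE against saline), so their values in the WT treatment contrasts are given as descriptions without a test. The other 6 were taken for their names, as ligases of heart stress and atrophy, although earlier results of these data were known.

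The hearts came from WT mice and from mice labelled MCT1KO, a knockout of the monocarboxylate transporter MCT1, encoded by Slc16a1, that carries lactate across membranes. Each genotype had mice without a pump (4 WT, 3 MCT1KO), with a saline pump (6 WT, 4 MCT1KO) and with a pump giving Ang/PE (3 WT, 5 MCT1KO), the neurohormonal agonists with which the study caused hypertrophy of the heart. The no-pump and saline groups are both controls for Ang/PE. Saline against no pump compares hearts with and without a pump, in groups that also differed in tissue markers and Xist, as given below. Age, sex, strain, the length of the infusion and the way in which the knockout was made are not given in the sources used here.

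Ubiquitin is passed from an activating enzyme to a conjugating enzyme and then, with the help of a ligase, to a protein, which the proteasome may then degrade. The ligase chooses the protein. In striated muscle Trim63 (MuRF1) and Fbxo32 (atrogin-1) are the classic atrophy ligases, whose transcripts are known to rise through FoxO factors and glucocorticoids. Trim55 (MuRF2) is a relative of Trim63 at the sarcomere. RBR ligases such as Rnf144b and HECT ligases such as Herc2 and Nedd4 carry ubiquitin on a cysteine before passing it on, whereas RING and U-box ligases bring the conjugating enzyme to its target.

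Upstream sequences are shown for Rnf144b and Rnf2, both chosen for lower levels in WT saline hearts, and for Trim63, the member best known for control by FoxO and glucocorticoids. RefSeq's promoter table (assembly GRCm38.p6) had entries for 7 of the 9 members. The lines give the 250 bases upstream of the annotated start, in the direction of transcription. Capitals mark matches on either strand to the motifs searched: the E-box CACGTG, the CCAAT box, the FoxO core GTAAACA, the core AGAACA of glucocorticoid response elements, the GC box GGGCGG and the TATA box TATAAA. Both strands were searched, and matches that overlapped each other were counted separately.
Rnf144b, first start, chr13:47122470-47122719, plus strand: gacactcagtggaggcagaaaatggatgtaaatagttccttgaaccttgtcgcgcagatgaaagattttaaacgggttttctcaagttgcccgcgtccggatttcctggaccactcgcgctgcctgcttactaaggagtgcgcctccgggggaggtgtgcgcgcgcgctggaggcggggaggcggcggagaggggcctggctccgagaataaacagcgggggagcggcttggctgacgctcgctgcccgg
Rnf144b, second start, chr13:47193753-47194002, plus strand: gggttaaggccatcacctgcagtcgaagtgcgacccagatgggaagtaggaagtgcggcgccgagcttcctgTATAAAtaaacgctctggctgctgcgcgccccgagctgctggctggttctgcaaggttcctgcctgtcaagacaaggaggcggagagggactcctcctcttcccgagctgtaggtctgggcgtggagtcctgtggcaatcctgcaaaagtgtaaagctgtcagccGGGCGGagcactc
Rnf2, chr1:151500992-151501241, minus strand: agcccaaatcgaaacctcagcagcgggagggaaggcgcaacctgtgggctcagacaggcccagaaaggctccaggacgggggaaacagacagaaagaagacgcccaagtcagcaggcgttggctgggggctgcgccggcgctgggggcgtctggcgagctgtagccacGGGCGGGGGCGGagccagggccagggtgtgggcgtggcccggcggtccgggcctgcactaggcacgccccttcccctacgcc
Trim63, chr4:134314870-134315119, plus strand: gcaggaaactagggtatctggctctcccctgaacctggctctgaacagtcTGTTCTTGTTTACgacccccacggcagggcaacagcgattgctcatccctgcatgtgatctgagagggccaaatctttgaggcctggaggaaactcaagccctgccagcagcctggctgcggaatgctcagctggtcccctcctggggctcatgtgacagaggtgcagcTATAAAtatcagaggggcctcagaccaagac

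The upstream window of Trim63 held 1 GTAAACA match, 1 AGAACA match directly beside it without overlap, and 1 TATAAA match. Among the members not shown, the window of Mdm2 also held 1 GTAAACA and that at the second Nedd4 start 1 AGAACA. Over 32851 promoters of the same length, GTAAACA was found in 3.17%, AGAACA in 16.1%, TATAAA in 12.4%, GGGCGG in 32.7%, CCAAT in 33.8% and CACGTG in 6.02%. The window at the first Rnf144b start held none of the 6 motifs, that at the second start held 1 GGGCGG and 1 TATAAA, and that of Rnf2 held 2 GGGCGG. The windows of Rnf144b's first start and of Rnf2 had 23 and 20 CG pairs and a GC content of 61.2% and 70.4%, against medians of 6 and 52.4% over all entries, while Trim63 had 4 CG pairs and 56.8%. These letters describe the windows only.

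Sequencing depth was between 12216704 and 24880683 counted reads per heart, and the lowest count of any member in any heart was 212 (Rnf2). Levels are given in CPM, the read count scaled to a common library size with TMM, fold changes as log2 with their standard error (SE), and a gene is called at an adjusted p under 0.05 from edgeR's quasi-likelihood test, adjusted with Benjamini-Hochberg over all 17682 genes. Hearts within a group are counted as separate animals, 1 library each. Slc16a1 itself did not separate the genotypes: its level was 150 to 249 CPM in WT hearts and 132 to 223 CPM in hearts labelled MCT1KO, so directions for the knockout rest on the labels. Cardiomyocyte markers (7 genes such as Myh6 and Tnnt2) summed to between 32320 and 66600 CPM over the 25 hearts, and 6 skeletal muscle markers to at most 2.418 CPM.

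The saline hearts stood apart. An atrial score was the mean log2 level of Myl4, Myl7 and Sln, and an adipose score that of Adipoq, Plin1, Cidec, Ucp1 and Retn. Both scores were each higher in 8 of 10 saline hearts than in any of the other 15. The summed markers given next also include Nppa and Bmp10 for atrial and Cfd for adipose tissue. The summed atrial markers were 46.68 to 2832 CPM in WT saline hearts and 64.11 to 7519 CPM in MCT1KO saline hearts, against 60.32 to 132.6 CPM in WT and 22.14 to 463.2 CPM in MCT1KO hearts without a pump. Ang/PE hearts had 153.4 to 316.8 CPM in WT and 315.5 to 5149 CPM in MCT1KO. The summed adipose markers reached 41.13 CPM in WT saline and 1462 CPM in MCT1KO saline hearts, and at most 1.372 CPM in the other 4 groups. Myl7 and Sln averaged 0.152 and 0.0 CPM in WT hearts without a pump and 123.9 and 51.3 CPM in WT saline hearts. The samples may thus not all hold the same parts of the heart. The part that atrial or adipose tissue in the sample has in the members' differences was not tested. In RNA of mixed tissue, fewer cells of a type and less RNA per cell cannot be told apart. Xist was expressed in 3 of 3 WT Ang/PE hearts, 1 of 6 WT saline hearts and 2 of 4 WT no-pump hearts. In MCT1KO it was expressed in 0 of 3 hearts without a pump, 3 of 4 with saline and 4 of 5 with Ang/PE. Sex thus moved with treatment, and also with genotype among the no-pump and the saline hearts. Mitochondrial transcripts took 14.78% to 18.35% of reads in WT hearts without a pump and 8.94% to 14.77% in WT saline hearts, without overlap, 12.59% to 15.13% in WT Ang/PE hearts, and 12.82% to 18.16%, 9.033% to 17.26% and 8.868% to 13.48% in MCT1KO hearts without a pump, with saline and with Ang/PE. Their part in the members' differences was not tested.

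Per kilobase of the longest annotated transcript, the 9 ligases covered a wide range of levels. Averaged over the 25 hearts, Nedd4 had 123.5 CPM per kb, Trim63 81.45, Trim55 40.44, Fbxo32 33.59, Stub1 33.39, Mdm2 15.12, Herc2 12.94, Rnf144b 8.948 and Rnf2 5.665. Fbxo32 and Stub1 are neighbours that did not differ beyond the spread between hearts, and Mdm2 and Herc2 lay close together. The 3 ligases chosen for differing with treatment in WT hearts were the 3 lowest of the 9 on this scale.

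**Figure D1:**
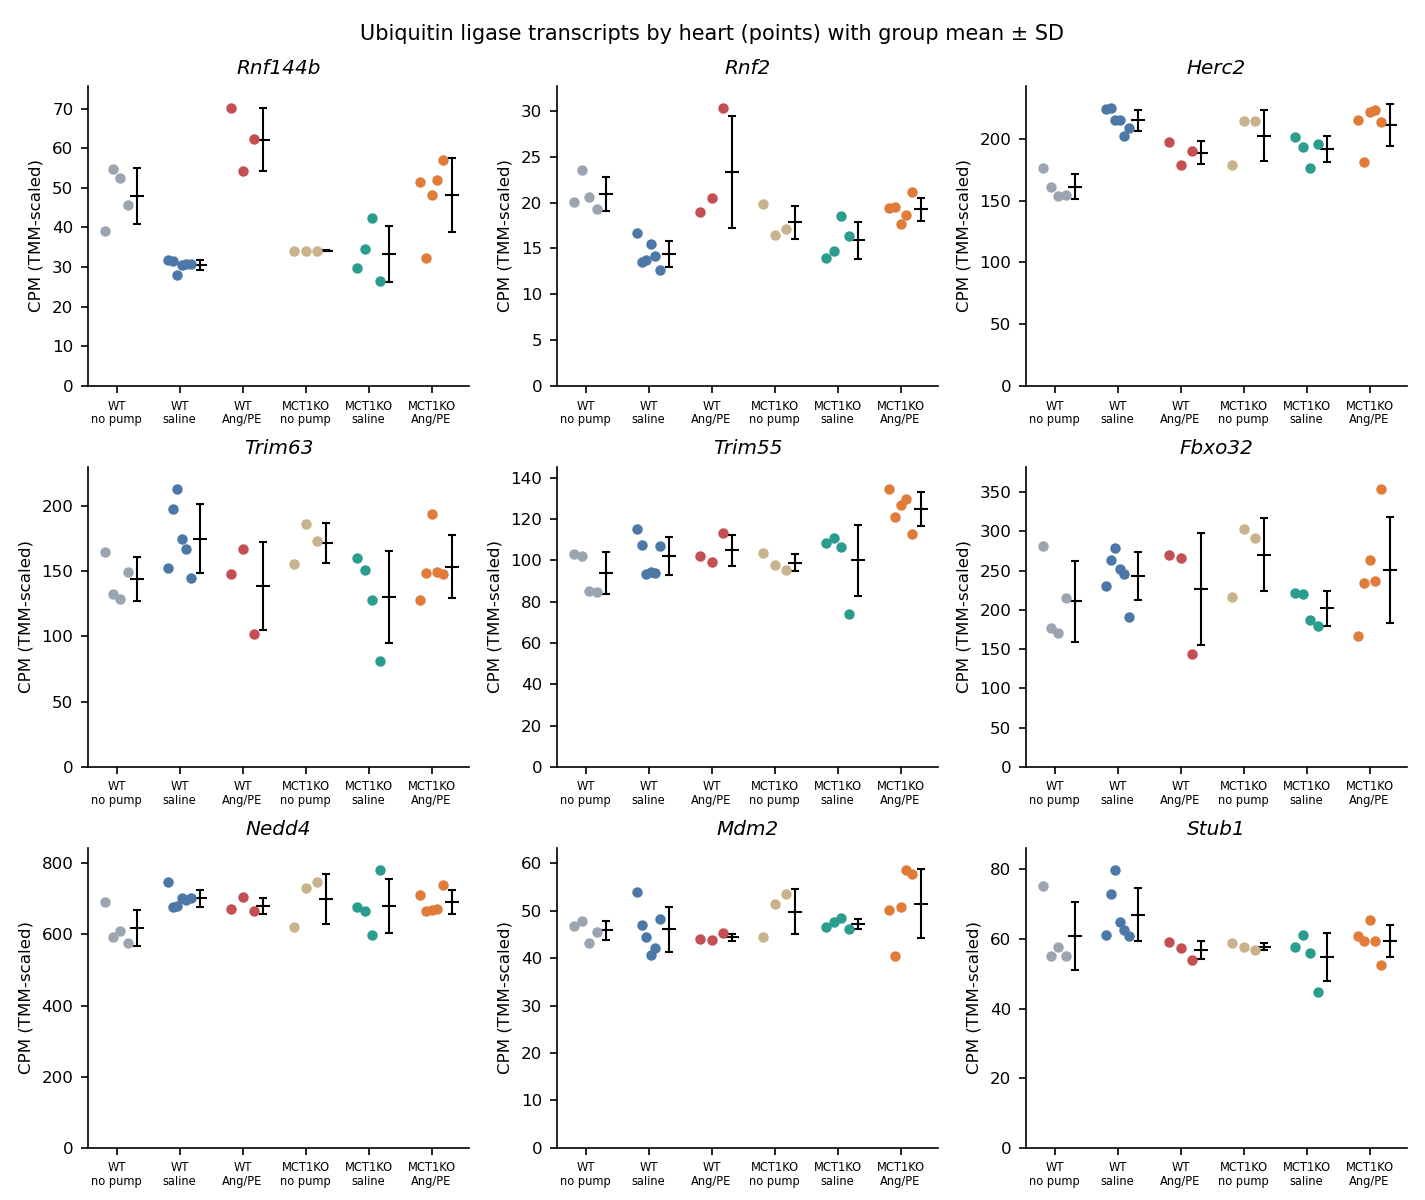
TMM-scaled CPM (vertical axes, each starting at 0) of the 9 ligases, 1 panel each, by group of hearts (horizontal axis); each point is a heart and the bars beside the points are the group mean ± SD. All WT saline hearts are below all other WT hearts for Rnf144b and Rnf2 and above them for Herc2, and the points of Trim63 and Fbxo32 overlap between all groups.

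Rnf144b (ENSMUSG00000038068), an RBR ligase known as a target of p53, had the largest log2 differences of the 9 in the 2 WT contrasts that chose it. In WT hearts without a pump it stood at 39.03, 45.7, 52.4 and 54.8 CPM. In the 6 WT saline hearts it was between 27.99 and 31.8 CPM, a spread of only 1.34 CPM (SD) around a mean of 30.6. With Ang/PE the 3 WT hearts had 54.2, 62.2 and 70.1 CPM. All WT saline hearts lay below all other WT hearts, and the Ang/PE and no-pump ranges overlapped slightly. The log2 difference was -0.65 for saline against no pump and 1.03 between the Ang/PE and the saline hearts, 2 contrasts that share the saline hearts and that chose the gene. The first was -0.41 with the atrial and adipose scores in the model.

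In the hearts labelled MCT1KO, which the choice of Rnf144b did not use, it was flat between the control groups and rose with Ang/PE. The no-pump hearts had 33.96, 34.14 and 34.15 CPM. The saline hearts had 26.4, 29.7, 34.6 and 42.4 CPM. The Ang/PE hearts had 32.4, 48.1, 51.5, 51.9 and 57.0 CPM, so that 4 of 5 lay above every saline heart and 1 (replicate 2) within their range. Ang/PE against saline gave a log2 difference of 0.53 (SE 0.14, 95% interval 0.25 to 0.82, edgeR adjusted p = 0.027). It was the only call among the 9 members in a contrast of MCT1KO hearts, where 4.46% of all genes were called.

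That call was not firm. It was kept in 3 of 9 fits that left out 1 heart, with log2 differences between 0.43 and 0.66 over all 9. It was lost without MCT1KO saline replicate 4 (0.43, edgeR adjusted p = 0.154), saline replicate 1 (0.48, adjusted p = 0.076), or Ang/PE replicate 1 (0.50, adjusted p = 0.061), 3 (0.53, adjusted p = 0.051), 4 (0.49, adjusted p = 0.067) or 5 (0.47, adjusted p = 0.070). Of 10 other settings 5 kept it. It was also lost with only the groups compared in the fit (0.52, edgeR adjusted p = 0.26), with a term for replicate number (0.50, adjusted p = 0.071) and with that term and GC and length offsets (0.49, adjusted p = 0.079). The saline heart with the highest Rnf144b level (replicate 3) was also the MCT1KO saline heart with the lowest atrial score, and with both tissue scores in the model the difference was 0.28 (adjusted p = 0.78). Adding a score of clock genes as a covariate gave 0.72 (adjusted p = 0.22), the clock score lying between -0.205 and 0.847 in MCT1KO Ang/PE hearts and between 1.798 and 2.916 in MCT1KO saline hearts. The part that time of day or tissue has in the difference was not tested.

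Against MCT1KO hearts without a pump, Ang/PE gave a log2 difference of 0.50 (SE 0.15), which did not pass (edgeR adjusted p = 0.12). Atrial scores were -3.408 to -0.871 in the no-pump and -2.621 to -1.183 in the Ang/PE hearts of this contrast. The corresponding WT difference was 0.37. Between genotypes Rnf144b was lower in MCT1KO than in WT hearts without a pump, where no MCT1KO heart reached the lowest WT heart, by a log2 difference of -0.49 (SE 0.15). With Ang/PE the difference was -0.37 (SE 0.15). The interaction, that is the difference between the genotypes in a response, was -0.49 (SE 0.20) for Ang/PE against saline and 0.62 (SE 0.20) for saline against no pump. For Rnf144b, Rnf2 and Herc2 the genotype contrasts and interactions use WT hearts that chose them, so they are given without a p-value, and none of them was called by edgeR.

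Rnf2 (ENSMUSG00000026484) encodes RING1B, the catalytic subunit of Polycomb repressive complex 1, which puts ubiquitin on histone H2A. Its levels in WT hearts were 19.3, 20.1, 20.6 and 23.6 CPM without a pump, between 12.7 and 16.7 CPM with saline, and 19.03, 20.6 and 30.3 CPM with Ang/PE. As with Rnf144b, every WT saline heart lay below every other WT heart. The log2 differences were -0.54 for saline against no pump and 0.69 between the Ang/PE and the saline hearts. Without WT Ang/PE replicate 3, at 30.3 CPM, the Ang/PE difference was 0.47.

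In MCT1KO hearts the Rnf2 differences had the same signs and were smaller. The no-pump hearts had 16.5, 17.1 and 19.9 CPM, the saline hearts 13.95, 14.7, 16.3 and 18.6 CPM, and the Ang/PE hearts 17.7, 18.6, 19.4, 19.6 and 21.1 CPM. Of 4 saline hearts 3 lay below all 5 Ang/PE hearts. Ang/PE against saline gave 0.28 (SE 0.12, 95% interval 0.03 to 0.52), which did not pass (edgeR adjusted p = 0.18). It was called only when offsets for GC content and transcript length were added (0.31, edgeR adjusted p = 0.048), and was 0.01 with the clock score in the model. The interactions with genotype were 0.37 (SE 0.17) for saline and -0.41 (SE 0.17) for Ang/PE, and MCT1KO against WT hearts with Ang/PE differed by -0.27 (SE 0.13). Without WT Ang/PE replicate 3 the Ang/PE interaction was -0.20 and the difference between genotypes -0.05. With GC and length offsets the 3 values were 0.19, -0.21 and -0.16.

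Herc2 (ENSMUSG00000030451), a giant HECT ligase of the DNA damage response with a transcript of 15261 bases, went the other way. WT hearts without a pump had 154.1, 154.8, 161.1 and 176.2 CPM. The 6 WT saline hearts had between 202.5 and 225 CPM (median 215.4), above all of them. The WT Ang/PE hearts, at 178.8, 190.6 and 197.8 CPM, lay between the control groups without overlapping either. The log2 differences were 0.41 for saline against no pump and -0.19 for Ang/PE against saline.

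The MCT1KO hearts did not show this order. Without a pump they had 178.9, 214.3 and 215 CPM, with saline 176.8, 193.3, 196.4 and 201.7 CPM, and with Ang/PE 181.5, 213.9, 215.3, 221.8 and 223.4 CPM, and the 3 groups overlapped. Without a pump all 3 MCT1KO hearts were above all 4 WT hearts, by a log2 difference of 0.33 (SE 0.09), and with saline all 4 were below all 6 WT hearts, by -0.16 (SE 0.07). The interaction of genotype with saline was -0.49 (SE 0.12), and with Ang/PE 0.32 (SE 0.11). With GC and length offsets the difference between genotypes without a pump was 0.13.

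Base composition moved with the WT contrasts in which Rnf144b, Rnf2 and Herc2 were chosen. Over 12815 genes the rank correlation between a gene's GC content and its log2 difference was 0.41 when WT saline and no-pump hearts were compared, -0.39 for WT Ang/PE against saline hearts and 0.03 for the latter pair in MCT1KO. Against no pump it was 0.16 for saline and 0.19 for Ang/PE in MCT1KO, and 0.05 for Ang/PE in WT. Between genotypes it was 0.10 without a pump, -0.22 with saline and 0.29 with Ang/PE. The interactions had -0.20 with saline and 0.33 with Ang/PE. Rnf2 has a GC content of 39.52%, Rnf144b 48.02% and Herc2 50.1%, and the median of tested genes is 49.04%. With offsets for GC content and length, the saline difference in WT hearts went from 0.41 to 0.16 for Herc2 and from -0.54 to -0.30 for Rnf2, and from -0.65 to -0.70 for Rnf144b. The Ang/PE difference in WT hearts was 1.03 for Rnf144b and 0.52 for Rnf2 with these offsets.

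**Figure D2:**
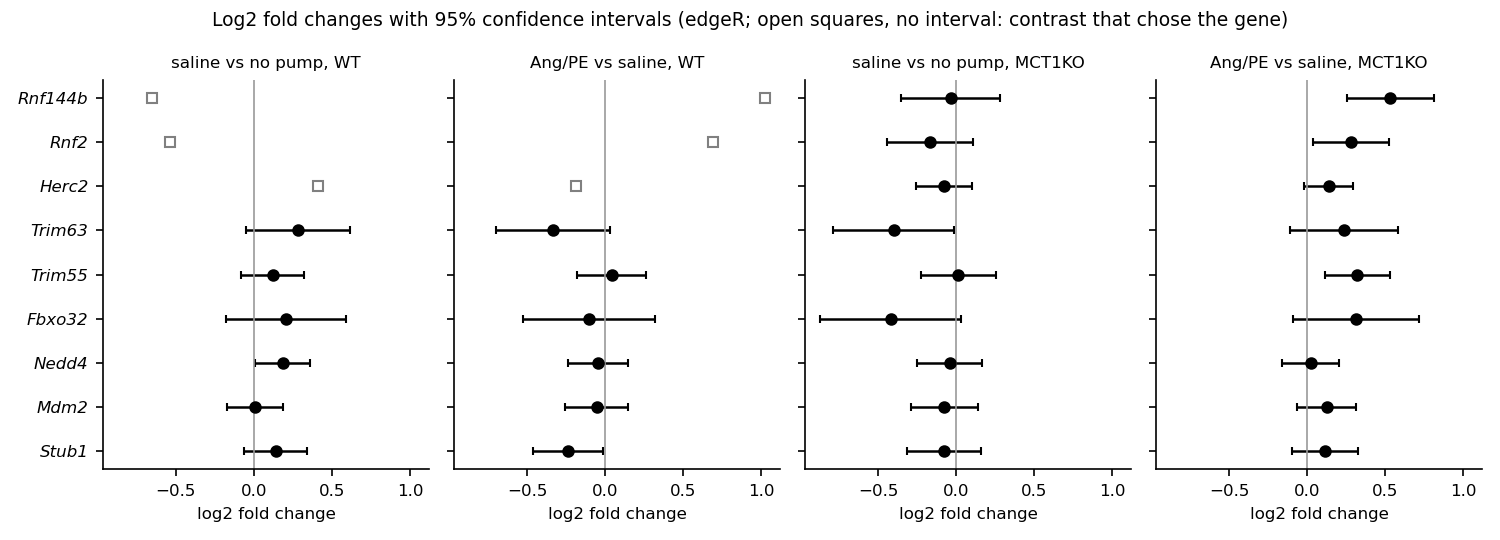
Log2 fold change (horizontal axes) of each of the 9 ligases in 4 comparisons, 1 panel each: saline against no pump and Ang/PE against saline, in WT and in MCT1KO hearts. Points carry their 95% interval from edgeR, and open squares without an interval are the WT contrasts that chose the gene; in MCT1KO hearts Rnf144b lies at 0.53 (0.25 to 0.82) for Ang/PE against saline, and Trim55 at 0.32 (0.11 to 0.53).

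Trim63 (ENSMUSG00000028834), the muscle RING-finger ligase MuRF1 that targets troponin and myosin in wasting muscle, was not called in any comparison. WT hearts had 128.6, 132, 149.5 and 164.9 CPM without a pump, between 145 and 212.6 CPM with saline, and 101.4, 148 and 166.5 CPM with Ang/PE. MCT1KO hearts had 155.3, 173 and 185.8 CPM without a pump, 81.3, 128, 150.6 and 160.1 CPM with saline and 127.5, 147.6, 148.2, 149.5 and 193.4 CPM with Ang/PE. The WT groups overlapped with each other, and so did the MCT1KO groups. Saline against no pump was 0.28 (SE 0.16) in WT and -0.40 (SE 0.19, edgeR adjusted p = 0.40) in MCT1KO hearts, and the test of that difference gave -0.68 (SE 0.25, edgeR adjusted p = 0.18). With the atrial and adipose scores in the model these were 0.08, -0.04 and -0.12.

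Between genotypes with saline, Trim63 was lower in MCT1KO hearts by -0.43 (SE 0.16, edgeR adjusted p = 0.20). The value rested partly on a single heart: MCT1KO saline replicate 4 had the lowest Trim63 of all 25 hearts (81.3 CPM) and the highest atrial and adipose scores of all 25 (9.932 and 7.016), and without it the difference was -0.25. With both scores in the model it was 0.03. The interaction of genotype with Ang/PE was 0.57 (SE 0.24, edgeR adjusted p = 0.33) and 0.05 with both scores in the model, and 0.37 without WT Ang/PE replicate 3.

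Fbxo32 (ENSMUSG00000022358) encodes atrogin-1, the F-box protein through which a cullin ligase recognises its targets in atrophying muscle. Its hearts were widely scattered within groups, from 170 to 282 CPM in WT without a pump, 191.3 to 278.6 with saline and 144.3 to 269.3 with Ang/PE. In MCT1KO hearts it was 216.8, 292 and 302.4 CPM without a pump, 179.3, 186.9, 220.5 and 221.9 with saline and 166.5, 234.6, 236.2, 263.4 and 353.7 with Ang/PE. The Ang/PE hearts thus included both the lowest and the highest Fbxo32 level of the MCT1KO hearts. Saline against no pump was -0.42 (SE 0.22, edgeR adjusted p = 0.45) in MCT1KO hearts, and the interaction with genotype -0.63 (SE 0.29, edgeR adjusted p = 0.27). With Xist in the model these 2 values were -0.09 and -0.15, and with both tissue scores -0.17 and -0.21. No comparison called Fbxo32.

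Trim55 (ENSMUSG00000060913), MuRF2, was highest in MCT1KO hearts given Ang/PE. Those 5 hearts had 112.9, 120.9, 126.8, 129.8 and 134.5 CPM. The 4 MCT1KO saline hearts had 74.3, 106.3, 108.4 and 111 CPM, the 3 without a pump 95.3, 97.9 and 103.6 CPM, and the groups did not overlap with the Ang/PE hearts. All 13 WT hearts lay between 84.8 and 115.4 CPM. Ang/PE against saline in MCT1KO hearts gave 0.32 (SE 0.10, 95% interval 0.11 to 0.53), short of the threshold (edgeR adjusted p = 0.069), and Ang/PE against no pump 0.34 (SE 0.11, edgeR adjusted p = 0.17).

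DESeq2 did call the first of these Trim55 differences (0.32, DESeq2 adjusted p = 0.041), as did edgeR with a term for replicate number (0.36, edgeR adjusted p = 0.040). Without MCT1KO saline replicate 4 it was 0.20 (edgeR adjusted p = 0.32), and with both tissue scores in the model 0.14 (edgeR adjusted p = 0.87). The difference from hearts without a pump was 0.18 with Xist in the model (edgeR adjusted p = 0.68). Between genotypes with Ang/PE, Trim55 differed by 0.25 (SE 0.11, edgeR adjusted p = 0.71).

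Nedd4 (ENSMUSG00000032216), the founding member of a HECT family that acts on membrane proteins and growth factor receptors, was the most abundant of the 9 per kilobase. WT hearts had 575.1 to 690.6 CPM without a pump, 677.4 to 746.5 with saline and 665.1 to 704.7 with Ang/PE. MCT1KO hearts had 619.7 to 746.8 CPM without a pump, 597.7 to 780.2 with saline and 665.1 to 739.9 with Ang/PE, and all groups overlapped. The widest log2 difference between treatments was 0.18 (SE 0.09), for WT saline against no pump. The difference between genotypes without a pump was also 0.18 (SE 0.10, edgeR adjusted p = 0.48), and 0.12 with Xist or with GC and length offsets in the model.

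Mdm2 (ENSMUSG00000020184), the ligase that keeps p53 low and is itself a p53 target, lay between 40.4 and 58.5 CPM over all 25 hearts. The groups had mean levels of 45.9, 46.1 and 44.4 CPM in WT hearts (no pump, saline and Ang/PE) and 49.8, 47.2 and 51.5 CPM in MCT1KO hearts. Both the lowest and the highest heart belonged to the MCT1KO Ang/PE group. Its widest difference between genotypes was 0.21 (SE 0.10, edgeR adjusted p = 0.71), with Ang/PE.

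Stub1 (ENSMUSG00000039615) encodes CHIP, a U-box ligase that works with the chaperones HSC70 and HSP90 and is known to protect the stressed heart. It lay between 57.3 and 79.7 CPM in WT hearts, apart from 3 hearts at 53.9, 55.1 and 55.1 CPM, and between 44.9 and 65.3 CPM in MCT1KO hearts. With saline the MCT1KO hearts (44.9, 56, 57.6 and 61 CPM) were below the WT hearts (60.8 to 79.7 CPM) by -0.29 (SE 0.10, edgeR adjusted p = 0.17), with only the highest MCT1KO heart overlapping the WT range. Without MCT1KO saline replicate 4 this was -0.19, and with both tissue scores in the model -0.02. Ang/PE against saline was -0.24 (SE 0.11) in WT hearts, and the interaction with genotype 0.35 (SE 0.15, edgeR adjusted p = 0.33). With both tissue scores these were -0.11 and 0.06, and with GC and length offsets -0.09 and 0.21.

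**Figure D3:**
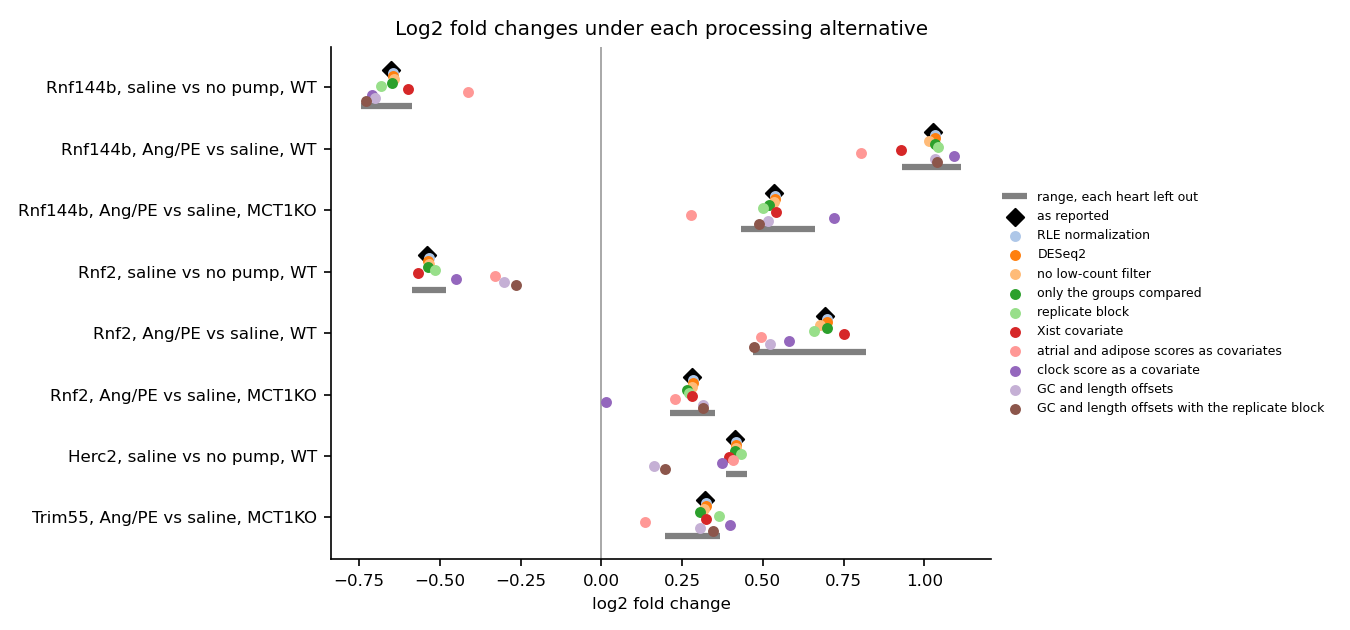
Log2 fold change (horizontal axis) of 8 treatment differences of Rnf144b, Rnf2, Herc2 and Trim55, 1 row each; diamonds are the reported values, coloured points the values under each other setting, and grey bars the range when each heart is left out in turn. The clock score moves Rnf2 in MCT1KO Ang/PE against saline to 0.01, both tissue scores move Rnf144b in that comparison to 0.28, and the GC and length offsets move Herc2 in WT saline against no pump to 0.16.

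Counted over all comparisons, the calls among the 9 ligases can be set beside those among all 17682 genes. In WT saline against no pump 3 of 9 were called, where 6.61% of all genes were. In WT Ang/PE against saline it was 2 of 9, against 0.017% of all genes. Both counts come from contrasts that chose members, and nothing is read from them. In MCT1KO Ang/PE against saline 1 of 9 was called, that is 11.1% of the members against 4.46% of all genes, and the median log2 difference of the 9 was 0.24, against -0.01 over all genes. With 1 call the count says nothing particular about the 9.

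The other 8 comparisons called 0 of the 9 with edgeR. In brackets is the share of all genes called in each and, after it, the share at an unadjusted p under 0.05. In the contrasts within MCT1KO hearts, which the choice did not use, 1 of 9 was at an unadjusted p under 0.05 for saline against no pump (0.00566%, 12.11%) and 2 of 9 for Ang/PE against no pump (0.503%, 13.1%). Where WT hearts enter, only the 6 ligases taken for their names are counted. It was 0 of 6 for WT Ang/PE against no pump (0.0%, 9.02%). Between genotypes it was 0 of 6 without a pump (0.0%, 12.2%), 2 with saline (0.0%, 17.05%) and 2 with Ang/PE (0.0%, 6.917%). For the interactions it was 2 of 6 with saline (0.00566%, 17.22%) and 2 with Ang/PE (0.0%, 13.53%). DESeq2 called 1 member, Herc2, in each of 2 of these comparisons, MCT1KO against WT without a pump and the interaction with saline, both of which use WT hearts that chose it, and 0 in the other 6.

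Other genes came from 10 lists. Besides the ubiquitin system these covered chaperones, p53, FoxO and glucocorticoid genes, and sarcomere substrates. The lists held 157 tested genes apart from the 9. In WT hearts 8 of them rose and 16 fell with saline against no pump, together 15.3% against 6.61% of all genes. In MCT1KO hearts 14 rose and 0 fell with Ang/PE against saline, 8.92% against 4.46% of all genes. Over all genes 422 rose and 746 fell in the first and 310 rose and 478 fell in the second. The lists were chosen with earlier results known, and nothing particular to them is read from these shares. In the other 9 comparisons edgeR called 0 of the 157, with between 15 and 37 of them at an unadjusted p under 0.05. DESeq2 called between 0 and 11 of them there.

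With Ang/PE in MCT1KO hearts, the genes that rose included muscle ligases that are not among the 9. Of 20 other muscle ligases and SCF parts 3 rose: Fbxo40, a muscle F-box protein known to target IRS1, by 0.77 (SE 0.18), Trim72, which acts in membrane repair, by 0.64 (SE 0.16), and Fbxl22, an F-box protein of the cardiac Z-disc, by 0.59 (SE 0.16). Fbxo40 had 351 to 397.2 CPM in the Ang/PE hearts and 256.7, 258.8 and 270.2 CPM in 3 saline hearts, with 101 CPM in saline replicate 4, so that the groups did not overlap. Of 9 tested Nedd4 relatives Smurf2, a ligase of TGF-beta signalling, rose by 0.29 (SE 0.08). Of 16 RBR and HERC ligases and 18 Polycomb partners of Rnf2, 0 were called by edgeR in this comparison, with 3 and 2 at an unadjusted p under 0.05 and 2 and 0 called by DESeq2.

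Stub1 itself was not called. Its list of 15 partners held 10 chaperones and co-chaperones and 5 conjugating enzymes, and 3 of the 15 rose, the co-chaperones Bag3 by 0.79 (SE 0.19) and Bag2 by 0.58 (SE 0.15) and the chaperone Hsp90ab1 by 0.46 (SE 0.12), and the list's median was 0.56 against -0.01 over all genes. Bag3 was 267.7, 269.3, 290.4, 310.1 and 494.4 CPM in the Ang/PE hearts and 127.5, 205.2, 208.8 and 215 CPM in the saline hearts. Hsp90ab1 was 1030, 1031, 1121, 1172 and 1443 CPM with Ang/PE and 715.3, 878.5, 889.3 and 898.5 CPM with saline. Neither gene's groups overlapped.

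Proteasome genes also included some that rose. Of 32 tested 3 rose, Psmd2 by 0.33 (SE 0.09), Psmd7 by 0.33 (SE 0.09) and Psmc1 by 0.30 (SE 0.08), all of the regulatory particle, and the list's median was 0.21. In 5 of the 9 fits that left out 1 heart (without Ang/PE replicate 1, 3, 4 or 5 or saline replicate 4) 0 proteasome genes rose, and without saline replicate 3 it was 10.

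Among p53 genes, Cdkn1a, the cell cycle inhibitor p21 and the best known p53 target, rose by 1.82 (1 of 12), and Mdm2, a target of the same factor, was not called. Cdkn1a was 49.7, 53.3, 54.9, 94.1 and 136.3 CPM with Ang/PE and 14.98, 16.9, 21.7 and 34.4 CPM with saline. Of 15 tested FoxO and glucocorticoid genes 1 rose, Ddit4, an inhibitor of mTORC1, by 1.64 (SE 0.43). Of 12 sarcomere substrates of Trim63 and Fbxo32 the fetal myosin gene Myh7 rose by 2.37 (SE 0.59), with 639.3 to 4667 CPM in Ang/PE and 196.6 to 689.3 CPM in saline hearts, ranges that overlapped.

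A single saline heart weighed on these counts. Without MCT1KO saline replicate 4, 1 of the 157 genes (Fbxo40) was called and 39 genes in all, and without saline replicate 3, 27 rose and 3 fell, with 1541 genes called in all. Without Ang/PE replicate 1, 2, 3, 4 or 5 the counts were 3, 11, 8, 6 and 7. Fbxo40 was the gene kept in all 9 of these fits, with a log2 difference between 0.53 and 0.87. With both tissue scores, or the clock score, in the model none of the 157 was called by edgeR, the 2 settings calling 0 of all 17682 genes. With only the groups compared in the fit, 0 of the 157 were called as well, and 1 gene in all.

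With saline in WT hearts the lists held calls in both directions, and outside the proteasome list 8 rose and 9 fell. With the replicate block 5 of the 157 rose and 3 fell. Of 32 proteasome genes 7 fell and 0 rose, led by the core subunits Psma1 (-0.57, SE 0.11) and Psma4 (-0.42, SE 0.10) and the ATPase Psmc6 (-0.47, SE 0.12). Psma1 was 81.4, 85.5, 88.9 and 93.7 CPM without a pump and between 53.4 and 63.4 CPM with saline, without overlap. Of 8 ubiquitin and activating-enzyme genes, Rps27a, which encodes a ubiquitin fusion, fell by 0.56 on the log2 scale and Uba3, which activates NEDD8, by 0.38. Cdkn1a (-1.82) and Sesn1 (-0.58) fell among 12 p53 genes, and Fkbp5 (-1.93), a glucocorticoid target, and Bnip3 (-0.72), a mitophagy receptor, among 15 FoxO and glucocorticoid genes.

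Several ligases rose or fell beside them. Hectd4 (0.52) and Arih2 (0.25) rose among RBR and HERC ligases, Nedd4l (0.49) and Smurf1 (0.33) among Nedd4 relatives, and Rnf207 (0.62) and Huwe1 (0.37) among the other muscle ligases, where Ube3a (-0.39) fell. Kdm2b (0.33) rose and Bmi1 (-0.35) fell among the Polycomb partners of Rnf2. Ube2w (-0.45), a conjugating enzyme that works with CHIP, fell, and Ttn (0.85), the giant sarcomere spring, rose. With the offsets for GC content and length 0 of these 157 genes were called, as with both tissue scores in the model, and all genes called went from 1168 to 107 and 0.

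Single hearts changed these counts too. Without WT no-pump replicate 3, 0 rose and 1 fell (60 genes called in all), without replicate 4, 1 rose and 3 fell (224), without replicate 2, 3 rose and 8 fell (439), and without replicate 1, 15 rose and 16 fell (2234). Without WT saline replicate 2, 3, 4 or 5 in turn 4 rose and 13, 11, 8 and 9 fell, without replicate 1, 5 rose and 13 fell, and without replicate 6, 8 rose and 11 fell. Psma1 was called in all 10 of these fits.

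**Figure D4:**
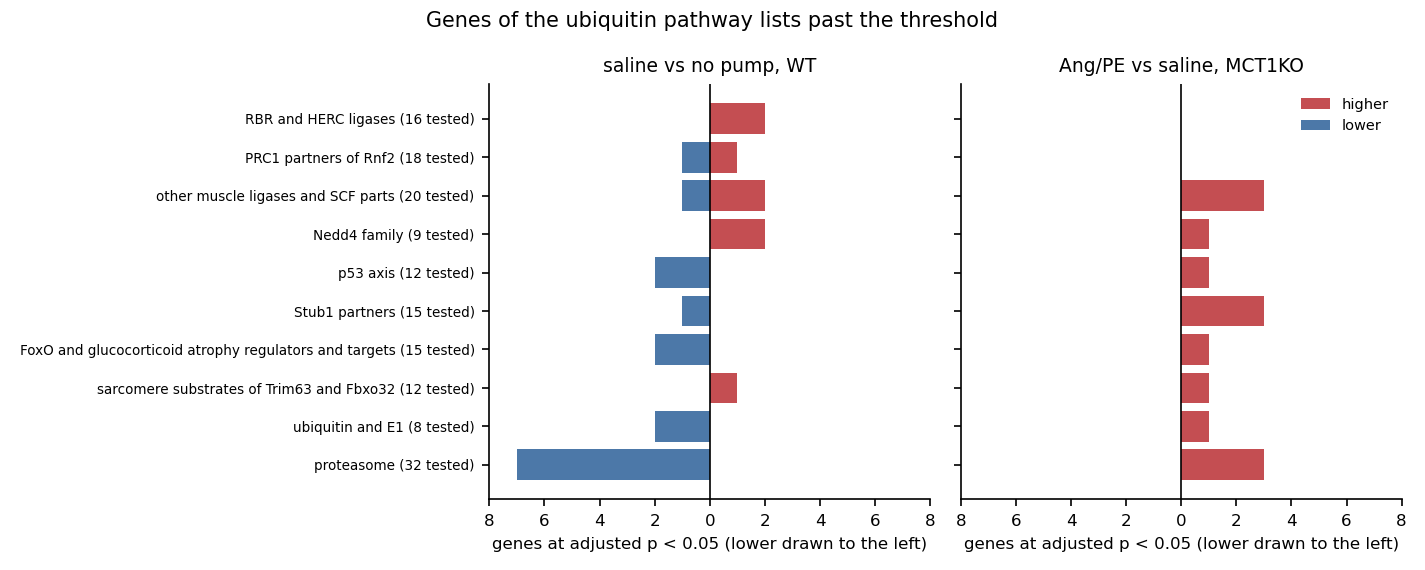
Number of tested genes in each of the 10 lists at an adjusted p under 0.05 (horizontal axes; genes that rose are drawn to the right of 0 and genes that fell to the left), in WT saline against no pump and in MCT1KO Ang/PE against saline. The proteasome list has 7 genes that fell in the first and 3 that rose in the second.

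The genes whose levels tracked each ligase most closely over the 25 hearts are given as a description, since treatment, genotype and library are shared by all points. Each is the highest Pearson correlation of log2 CPM among tested genes with a symbol, leaving out predicted gene models (Gm and Rik symbols). It is followed by the rank correlation and by the correlation left after the group means were removed. Rnf144b was most like Zbtb16 (r = 0.91, rho = 0.87, 0.86 within groups), a BTB transcription factor, and then Klf13 (r = 0.89) and Fkbp5 (r = 0.88, rho = 0.83, 0.73 within groups). Fkbp5 ranged from 16.7 to 27.98 CPM in WT saline hearts and from 33.2 to 146 CPM in WT hearts without a pump, and was 70.6 CPM in MCT1KO saline replicate 3, the saline heart in which Rnf144b was also highest.

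Rnf2 was most like Cp, ceruloplasmin (r = 0.90, 0.86 within groups), Gdi2 and Mosmo (both r = 0.88). Herc2 was most like 2 other giant ligases, Ubr4 (r = 0.94, 0.84 within groups) and Huwe1 (r = 0.93, 0.89 within groups), and the giant sarcomere gene Ttn (r = 0.93, 0.83 within groups). Trim63 was most like Asb10, an adaptor of cullin ligases (r = 0.94, 0.93 within groups), Gpr157 (r = 0.91) and Mtss1l (r = 0.90). For Trim55 the closest was Mypn, the sarcomere protein myopalladin (r = 0.87), for Fbxo32 Ppfibp2 (r = 0.84), for Mdm2 Sbno1 (r = 0.78) and for Stub1 Ndufv1, a subunit of respiratory complex I (r = 0.93, 0.91 within groups).

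Among the 9 themselves, the correlation over all hearts was highest for Rnf144b and Rnf2 (r = 0.76, rho = 0.80), but within groups it was 0.22, and both genes were chosen for their treatment differences in the 13 WT hearts among these points, so the value over all hearts partly restates that choice. Trim63 kept its relation with Stub1 (0.73 within groups) and with Fbxo32 (0.70 within groups), and without MCT1KO saline replicate 4 these were 0.66 and 0.76. Herc2 was related to Mdm2 (0.64 within groups) and to Nedd4 (0.56). These relations are not particular to the ligases. Within groups about 280 and 451 of 17681 other genes tracked Trim63 more closely than Stub1 and Fbxo32 did. For Herc2 about 214 and 462 were closer than Mdm2 and Nedd4. Trim63 and Rnf2 ran opposite ways (-0.57 within groups). Trim63 and Trim55, the 2 MuRF ligases, were at 0.26, and -0.12 without MCT1KO saline replicate 4.

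**Figure D5:**
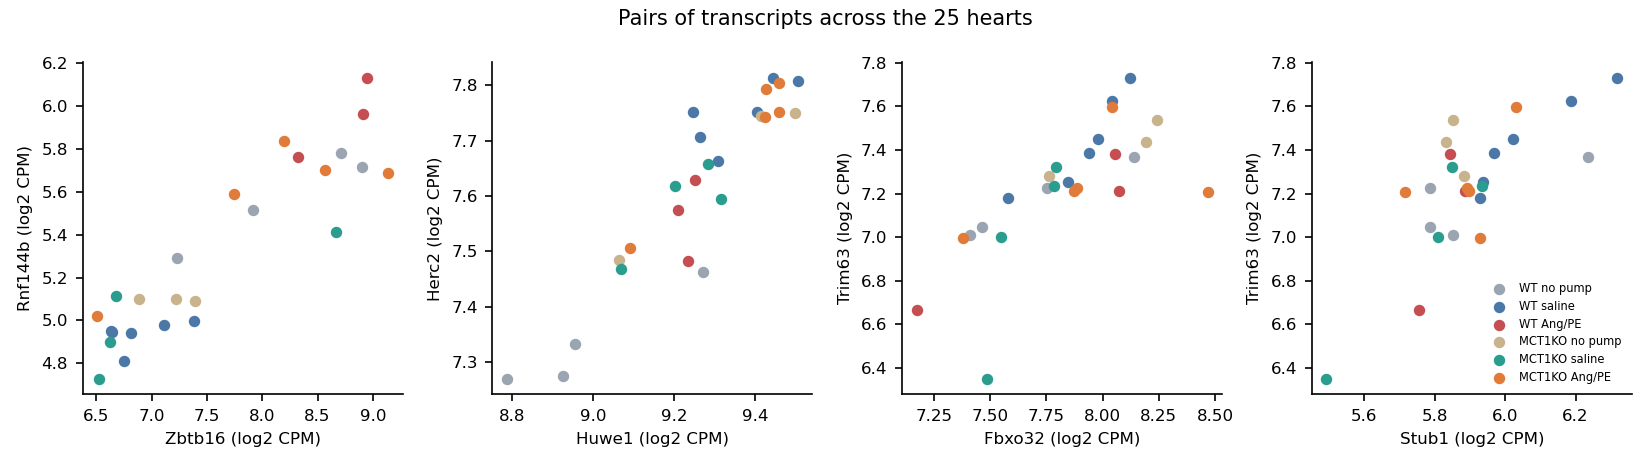
Log2 CPM of pairs of transcripts in the 25 hearts, each point a heart coloured by its group: Rnf144b against Zbtb16, Herc2 against Huwe1, Trim63 against Fbxo32 and Trim63 against Stub1. The first pair has r = 0.91 and the second r = 0.93 over all hearts, and the heart with the lowest Trim63 in both right panels is MCT1KO saline replicate 4.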

How the data were processed

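RNA of 25 mouse hearts was measured, 1 library each, after depletion of ribosomal RNA and with strand-specific library preparation, per the labels' protocols. The authors deposited 1 table of whole-number read counts per Ensembl gene, treated here as raw counts. The submitters' processing notes name STAR 2.7.9a, cutadapt 1.16, featureCounts 1.6.3, DESeq2 1.42.1 and the build GRCm39 (mm39), with no role given. Whether counting used strand is not given in the sources used here, so reads of overlapping or antisense genes may be shared. Rows without a symbol held 0.778% of reads.

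Genes passing edgeR's filterByExpr (17682 of 56941) were TMM-scaled and fitted in 1 model of 6 groups (edgeR 4.0.16 in R 4.3.3, quasi-likelihood test, 19 residual degrees of freedom, common biological coefficient of variation 0.196). Contrasts, 11 in all, were tested, each adjusted with Benjamini-Hochberg over all genes, and calls are at an adjusted p under 0.05. The fit was tested on simulated data. The lists, the 9 genes and the tests were chosen with earlier results of these data known. The text names all 9 ligases, at most 3 called genes per list, direction and comparison, and up to 3 most similar genes per ligase. Some genes that this rule would name are not reported here. GC content and length came from the longest GENCODE M21 transcript (GRCm38). Alternatives were RLE scaling, DESeq2 1.42.0, no low-count filter, only the groups compared, a replicate block, Xist, tissue or clock scores as covariates, leaving out each heart and, chosen after seeing the data, GC and length offsets (mgcv 1.9.3). Tissue scores are means of log2 CPM. The clock score is the mean log2 CPM of Per1, Per2, Per3, Dbp, Nr1d1, Nr1d2, Tef and Ciart minus that of Arntl, Npas2 and Clock. Libraries of a group did not agree within counting noise (lowest chi-square per degree of freedom 3.33 over 43 pairs, median 23). The lowest was between MCT1KO saline replicates 1 and 2, which were far more alike than the other pairs of their group (47.3 to 108).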

Additional observations from a re-analysis of the deposited data

Results flagged for a closer look

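In 5 of 36 sets of hearts (each ligase in each group of 4 to 6), 1 heart lay apart from the rest of its group by Dixon's test, where chance gives about 1.8. Rnf144b was low in WT saline replicate 3, at a log2 CPM of 4.813. Herc2 was low in MCT1KO Ang/PE replicate 2, at 7.505. Trim55 was low in MCT1KO saline replicate 4, at 6.217, the heart with the highest atrial and adipose scores, where Trim63 and Stub1 also had their lowest levels of all 25 hearts. Nedd4 was high in WT saline replicate 1, at 9.544. Stub1 was high in WT no-pump replicate 1, at 6.235.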

How the results depend on the processing

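Of 778 values of the 37 printed log2 differences under other settings, 732 kept direction and side of the threshold, 35 no longer passed, 10 newly passed and 1 reversed: Trim63 in MCT1KO against WT saline hearts, 0.028 with the atrial and adipose scores. The number of the 9 ligases called in WT saline against no pump (3) was 0 with those scores, 1 with GC and length offsets and 0 with offsets and replicate block. In WT Ang/PE against saline (2) it was 1 with the block or the clock score, 0 with Xist, with the tissue scores or with offsets and block, and 1 to 2 without single hearts. In MCT1KO Ang/PE against saline (1) it was 2 with DESeq2 or the offsets, 0 with only the groups compared, the tissue scores or the clock score, and 0 to 1 without single hearts. In MCT1KO Ang/PE against no pump (0) it was 0 to 1 without single hearts. DESeq2 gave 1 in MCT1KO against WT without a pump (0) and 1 in the saline interaction (0), which gave 0 to 2 without single hearts. The causes were not tested.

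The genes called among all genes moved as well: WT saline against no pump (1168) gave 1949 with DESeq2, 509 with no filter, 2287 with only the groups compared, 527 with the block, 521 with Xist, 111 with the clock score and 107 with offsets, and MCT1KO Ang/PE against saline (788) gave 1224, 452 and 1 with the first 3. WT Ang/PE against saline (3) gave 641 with DESeq2, 945 with only the groups compared, 27 with RLE and 31 with offsets.

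Hearts share only a replicate number in the labels and are different animals: the mean correlation of deviations was 0.0128 over 52 same-number pairs (-0.394 to 0.403), against -0.00284 over 205 others. With the replicate block the ligase called in MCT1KO Ang/PE against saline was Trim55 (0.36), with Rnf144b at 0.50, and the pairing is not used. Precision is limited by 3 to 6 hearts per group.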
